A study of Mus musculus with 6 samples.

Results

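The cytosolic ribosomal protein genes encode the proteins of the small (40S) and large (60S) subunits of the ribosome outside mitochondria. They were chosen by gene symbol: Rpl or Rps followed by a number with at most a short suffix, together with Rplp0, Rplp1, Rplp2 and Rpsa, and without S6 kinases and symbols ending in -ps, the mark of a processed pseudogene. Of 45777 genes in the table, 89 symbols matched, and 87 of these averaged 10 counts or more. The 87 comprised 31 genes of the core 40S subunit, 46 of the core 60S subunit, 5 protein-coding paralogs (Rpl3l, Rpl7l1, Rpl22l1, Rps27l and Rpl32l) and 5 genes that the table's annotation calls pseudogenes (Rps4l, Rpl6l, Rps3a2, Rps3a3 and Rps12l1). Just inside the minimum were Rpl32l, with a mean of 145 counts, and Rps4l, with 795. Just outside were Rpl39l, with 10 and 4 counts in the libraries given Rh2 alone and 0 elsewhere, and Rpl10l, with 0 in each.

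The animals were BALB/c nude females (CAnN.Cg-Foxn1nu/Crl), which lack a thymus, and were 6 weeks old when the experiment began. All carried subcutaneous tumours of MDA-MB-231, a human breast cancer cell line. RNA was extracted from their hearts. The paper does not say whether the atria were kept in every pool, and atrial marker levels, given further on, differed widely between libraries. There was 1 library for each of 6 conditions, each pooled from 5 hearts, so no condition had a replicate. The Control group received vehicle. Daily injections of ginsenoside Rh2, a ginseng saponin, were given alone at a lower dose (Rh2-20 mg/kg) or at a higher one (Rh2-30 mg/kg). The Dox group received doxorubicin, an anthracycline with known toxicity to the heart, at 2 mg/kg every other day to a cumulative 22 mg/kg. The last groups combined this Dox course with the lower Rh2 dose (labelled Rh2-20 mg/kg + Dox) or with the higher Rh2 dose (Rh2-30 mg/kg + Dox), and treatment lasted 3 weeks throughout. Values over the 6 libraries are given, unless said otherwise, in a fixed order of Control, lower Rh2 dose, higher Rh2 dose, lower Rh2 dose with Dox, higher Rh2 dose with Dox, and Dox alone. The study asked whether Rh2 changes what Dox does to the heart.

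A cell needs ribosomal proteins in near equal numbers, because each ribosome holds a single copy of nearly every one of them. Most of their mRNAs belong to the 5′ TOP class: they begin with a C followed by a run of C and T, through which the kinase complex mTORC1 and the protein Larp1 set how much of the mRNA is translated and how stable it is. In the heart, ribosome number is a main limit on protein synthesis, and striated muscle also makes Rpl3l, a paralog that takes the place of Rpl3 in some ribosomes.

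The sequences around the annotated starts were searched for a run of this kind. The search did not ask that the run open the mRNA, so it does not tell which mRNAs are of the 5′ TOP class. RefSeq (GRCm38.p6, the assembly of mm10) gave a start sequence for 62 of the 87 genes. A run of at least 8 bases that began with C and went on in C or T, on the sense strand, within 20 bases before to 30 bases after an annotated start, was present in 34 of them (54.8%). The same run was present in 18.5% of the 12088 tested protein-coding genes with a sequence and in 17.0% of all 27025 genes with one. The lines below are these 50-base windows, 5′ to 3′ on the sense strand, with the longest such run in capitals. The first 6 are shown because their genes have long runs or are named with values further on. Their positions are chr2:26910787-26910836 (Rpl7a, plus strand), chr7:109519175-109519224 (Rpl27a, plus), chr4:136053364-136053413 (Rpl11, minus), chr9:120571497-120571546 (Rpl14, plus), chr10:23787180-23787229 (Rps12, minus) and chr4:86857338-86857387 (Rps6, minus).
Rpl7a: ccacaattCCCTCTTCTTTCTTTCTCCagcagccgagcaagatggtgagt
Rpl27a: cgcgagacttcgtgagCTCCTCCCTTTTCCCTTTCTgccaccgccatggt
Rpl11: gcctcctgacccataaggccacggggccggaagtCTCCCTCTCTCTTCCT
Rpl14: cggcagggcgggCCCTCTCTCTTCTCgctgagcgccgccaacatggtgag
Rps12: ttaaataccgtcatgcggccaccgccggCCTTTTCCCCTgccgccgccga
Rps6: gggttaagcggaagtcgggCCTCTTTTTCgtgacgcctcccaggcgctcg

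The next 3 windows hold no run of that length, so no base is in capitals. They are both annotated starts of Rpl3l, at chr17:24727806-24727855 and chr17:24732665-24732714 on the plus strand, and the start of Rpl7l1 at chr17:46782627-46782676 on the minus strand. These paralogs are shown because their values, given further on, ran apart from those of most core genes. Lack of the run was not particular to them: 31 of the 57 core genes with a sequence held it (54.4%). Core genes without it included Rps21 and Rpl6, while Rplp2 and the paralog Rpl32l held one. A link between the run and the values was not tested.
Rpl3l, first start: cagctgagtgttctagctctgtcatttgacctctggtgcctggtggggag
Rpl3l, second start: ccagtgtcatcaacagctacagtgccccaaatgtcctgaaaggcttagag
Rpl7l1: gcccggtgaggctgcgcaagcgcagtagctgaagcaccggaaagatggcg

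Other short motifs were sought on both strands of the 300 bases around the start (250 before, 50 after). CCGGAAG, the core letters of an ETS or GABP site, was present in 40.3% of the 62 genes and 17.6% of the tested protein-coding genes. CCATNTT, the core of a YY1 site, was present in 32.3% against 16.9%. TATAAA (12.9% against 10.0%) and GGGCGG, a GC box (61.3% against 63.8%), were the other motifs sought, and none of the 4 contains another. Over all genes with a sequence, the 4 shares were 9.93, 18.2, 15.7 and 38.2%. A match to these letters is a description of the window and not evidence that a factor binds there.

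Each library held 86164411 to 90621002 counts, so counting error was small. The library of the higher Rh2 dose stood apart from the rest in genes of other tissues. The 4 atrial markers summed to 1662 CPM (counts scaled to a common depth) there against 45.7 to 403 in the other libraries, the 3 brown fat markers to 92.8 against 3.66 to 9.13, and the 5 white fat markers to 199 against 0.345 to 37.1. Its 9 cardiomyocyte markers summed to 21096 CPM, the lowest of the 6 libraries (others 25085 to 29997), while its 8 fibroblast markers (2623, others 1018 to 1723) and 8 macrophage markers (588, others 263 to 497) were the highest. The library of the higher Rh2 dose with Dox held the highest cardiomyocyte level and the lowest fibroblast and macrophage levels. The 6 erythroid markers summed to 10509 CPM in Dox, against 1658 to 5903 in the other libraries. The cardiomyocyte, fibroblast, macrophage and endothelial markers had counts in every library. The part of these differences in tissue makeup in the ribosomal protein values was not tested. In pooled hearts, fewer cells of a type and less RNA per cell cannot be told apart.

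As a share of all counts, ribosomal protein genes were lowest in Control and highest at the higher Rh2 dose. The 87 genes took 1.44, 1.57, 2.02, 1.77, 1.55 and 1.49% of counts in the 6 libraries. Relative to Control, the share was in excess by 40.1% at the higher Rh2 dose, 22.8% at the lower Rh2 dose with Dox, 9.16% at the lower Rh2 dose alone, 7.71% when the higher dose was joined by Dox, and 3.08% with Dox alone. The 95% exact binomial intervals of the 6 shares did not overlap, but they cover counting error alone and not the spread between pools of mice. Both subunits took part in near fixed proportion: the ratio of 60S to 40S counts lay between 1.38 (the higher Rh2 dose with Dox) and 1.43 (the higher Rh2 dose). By length-scaled values (FPKM, fragment counts scaled to gene length and depth), the same genes held 5.0% of the Control total and 6.90% of the total at the higher Rh2 dose.

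**Figure D1:**
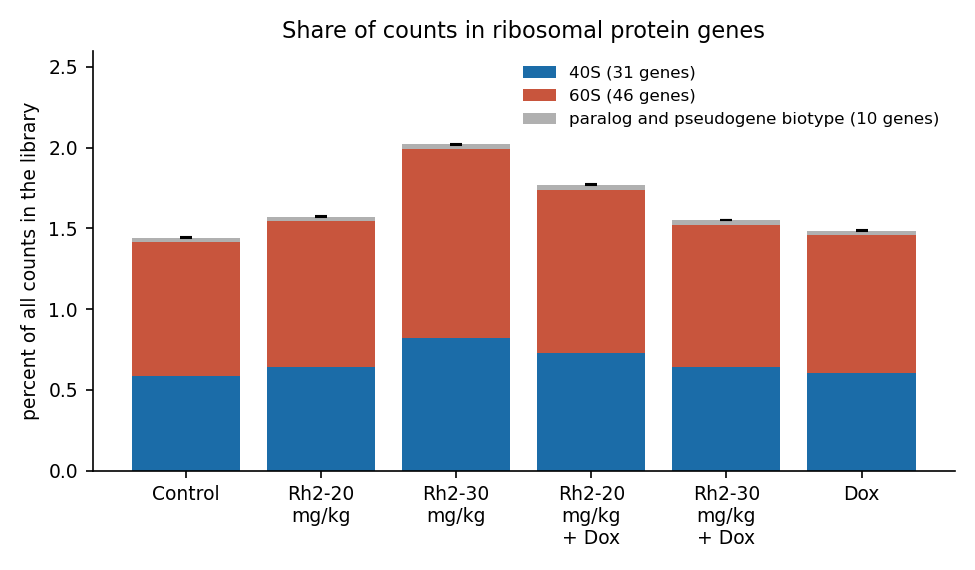
Percent of all counts in each of the 6 libraries that fell on ribosomal protein genes, stacked by 40S, 60S and other members, with 95% exact binomial intervals of the total (counting error only). Control (1.44%) and Dox (1.49%) are lowest and Rh2-30 mg/kg (2.02%) is highest, with both subunits taller in the same bar.

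Gene by gene, levels ran over a wide range, while most genes followed the sum of the others over the 6 libraries. The mean FPKM was highest for Rps12 (906 ± 154, SD over the 6 libraries), a 40S protein, followed by the 60S proteins Rpl23a (890 ± 113) and Rpl7a (640 ± 89.2). It was lowest for Rpl32l (2.12 ± 0.238), Rpl7l1 (6.10 ± 0.380) and Rps4l (7.32 ± 2.72). The median of the 6-library mean FPKM was 179 over core 40S genes, 141 over core 60S genes, 16.7 over paralogs and 14.5 over the genes of pseudogene biotype, against 3.12 over all tested genes. Rps12 and Rpl23a differed by less than their SD, so their order is not settled. The SD of the log2 level over the 6 libraries had a median of 0.143 in the 87 genes, 0.183 in all tested genes and 0.151 in tested genes averaging 1000 counts or more. As a description over 6 libraries that share 1 normalization, Pearson's r was taken between a gene's log2 CPM and that of the other members' sum. This r had a median of 0.881 and was above 0.9 in 39 of the 87. It was below 0.5 in 5: Rplp2, Rps4l (0.17), Rpl7l1 (0.03), Rps3a3 (-0.27) and Rpl3l (-0.69). The same r was not taken for genes outside the 87, so how common such values are is not known.

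Against Control, the core genes were higher at the higher Rh2 dose without exception. Ratios to Control were taken on counts normalized by TMM, a scaling that sets the bulk of genes equal between libraries, and they compare single libraries that all share the Control library, so none has a p-value. The median log2 ratio of the 87 genes over the 5 treated libraries was 0.05, 0.33, 0.21, 0.14 and 0.04, where all 18328 tested genes had medians of 0.00, 0.03, 0.01, -0.01 and 0.00. Higher than Control at any fold were 60, 84, 83, 71 and 51 of the 87, and 50.1, 53.5, 50.6, 48.7 and 49.1% of all tested genes. At the higher Rh2 dose all 77 core genes were among them, from a log2 ratio of 0.11 (Rpl23) to 0.53 (Rpl3). The 3 that were lower there were Rpl3l, Rpl7l1 and Rps3a3.

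The sizes were modest. Past the study's fold cut-off of 2, Rps4l alone was higher, at the higher Rh2 dose with Dox (log2 ratio 1.42). Of all tested genes, 3.34, 8.48, 5.13, 4.08 and 5.43% were higher past that cut-off over the 5 treated libraries. None of the 87 was lower past it, where 2.8, 1.63, 3.62, 6.85 and 3.58% of all tested genes were. Higher by at least 25%, a cut-off chosen after the data were seen, were 0, 47, 14, 5 and 3 of the 87, and 14.4, 26.9, 19.1, 19.1 and 20.4% of all tested genes. A 95% interval that adds the common dispersion of the 6 libraries (0.0285) to counting error reached a median of 0.68 on the log2 scale to either side. With it, the ratio to Control differed from 0 for Rps4l in Dox and at the higher Rh2 dose with Dox and for no other member in any library. This interval was taken for the 87 only, so the share of all tested genes is not known. A shift of 0.33 in 1 gene was therefore not detectable between 2 libraries.

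**Figure D2:**
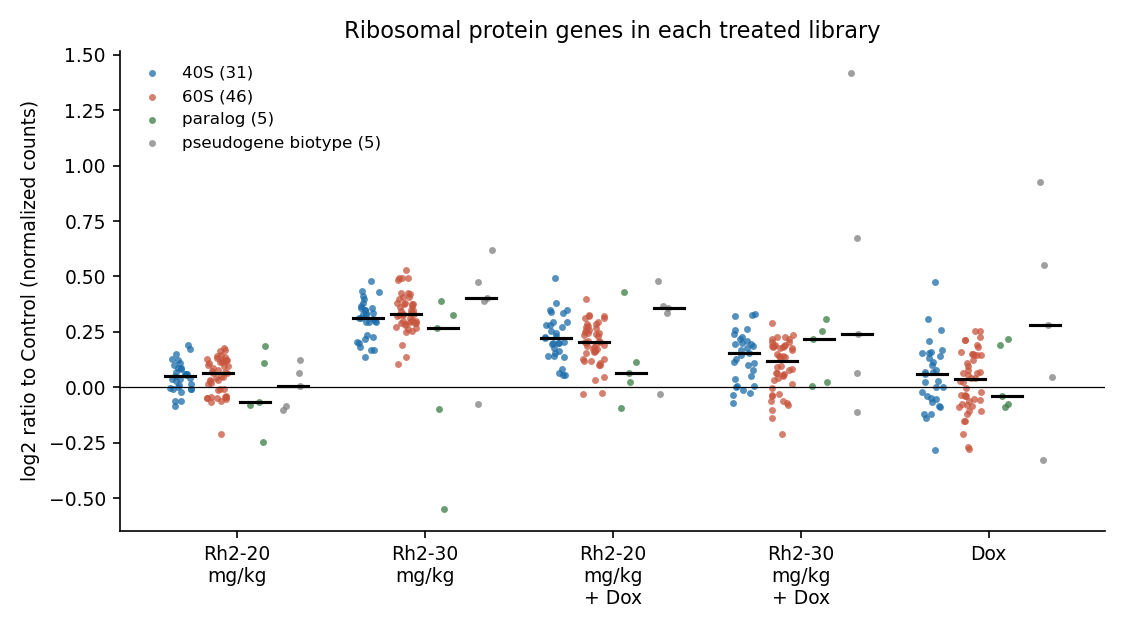
Log2 ratio to the Control library of TMM-normalized counts for each of the 87 genes (points) in the 5 treated libraries, by subunit or kind, with the median as a black bar. The 40S and 60S points lie wholly above 0 in Rh2-30 mg/kg, with the paralog Rpl3l at -0.55 in that library and Rps4l at 1.42 in Rh2-30 mg/kg + Dox.

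By rank, 73 of the 87 genes were highest at the higher Rh2 dose, as were 26.1% of all tested genes. The lower Rh2 dose with Dox was the highest library for 9 (8.82%) and the higher dose with Dox for 5 (20.2%), while Control, Dox alone and the lower dose alone were the highest for 0 (17.1%, 18.7% and 9.1%). Among core genes, 44 of 46 in the 60S and 24 of 31 in the 40S subunit were highest at the higher Rh2 dose. The lowest library was Control for 35 (17.2%), Dox for 29 (20%), the lower Rh2 dose for 17 (10.1%), the higher dose with Dox for 4 (23.2%), the higher dose alone for 2 (21.1%) and the lower dose with Dox for 0 (8.42%). All 4 libraries with Rh2 were above both without it for 29 genes (9.88% of all tested genes) and below both for 0 (9.08%). Leaving out the library of the higher Rh2 dose alone can only keep or raise the count above both. It stayed at 29 of the 87, while the share of all tested genes became 12.7%.

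The 40S genes, which decode the mRNA, gave the following values, in CPM after TMM normalization. Rpsa, the laminin receptor and a 40S protein at the mRNA exit, was 272, 279, 338, 299, 287 and 247. Rps6, the S6 kinase substrate, was 354, 371, 417, 389, 363 and 333. Both were lowest in Dox and Control and highest at the higher Rh2 dose. Rps19, the gene most often mutated in Diamond-Blackfan anaemia, was 122, 129.6, 149.9, 149, 137 and 134. Rps27a, made as a fusion with ubiquitin, had log2 ratios to Control of -0.01, 0.22, 0.16, 0.00 and 0.00. Rps27 was an exception among core genes: at 53.7, 50.6, 72.3, 75.5, 64.5 and 74.6 CPM, it was highest at the lower Rh2 dose with Dox, and its Dox library was close to the higher Rh2 dose.

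The 60S genes, which hold the peptide bond-forming centre and the exit tunnel, include the core gene with the highest ratio to Control. Rpl3, a protein next to that centre, was 196, 189.9, 282, 245, 205 and 206 CPM, highest at the higher Rh2 dose and lowest at the lower Rh2 dose. Rpl5 and Rpl11 form with 5S rRNA a particle that binds Mdm2 and so links ribosome assembly to p53. Rpl5 was 184, 199.6, 229, 217, 209 and 179, and Rpl11 was 310.1, 342, 394, 354, 354 and 319. The 2 Mdm2-binding genes thus shared the highest library, the higher Rh2 dose, but Rpl5 was lowest in Dox and Rpl11 in Control. Rpl23 had the smallest ratio to Control of the core genes at the higher Rh2 dose, with 266, 258, 286, 303, 302 and 274 CPM. Rpl32 and Rpl37 were the only members lower in each Dox library than in each library without Dox, with Rpl32 at 198, 197 and 226 without Dox and 194, 171 and 164 with it (9.17% of all tested genes were so separated).

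The stalk of the 60S subunit, built of Rplp0 and the acidic proteins Rplp1 and Rplp2, recruits the elongation factors. Rplp0 was 73.5, 79.5, 98.6, 85.0, 85.5 and 81.3 CPM, and Rplp1 was 184, 187, 219, 217, 208 and 201. Rplp2 was 54.3, 59.4, 59.7, 58.5, 63.9 and 54.1, with its highest value at the higher Rh2 dose with Dox. Each of the 3 was higher in all 4 libraries with Rh2 than in Control, and Rplp2 alone was also higher in all 4 than in Dox.

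Rpl3l ran against its parent. Rpl3l (NCBI Gene 66211, chr17:24727826-24736143) was 127, 145, 87.1, 119, 157 and 121 CPM. The lowest Rpl3l value was in the library with the highest Rpl3 (NCBI Gene 27367, chr15:80077781-80083406). At the higher Rh2 dose the log2 ratio to Control was -0.55 for Rpl3l (95% counting interval -0.59 to -0.51, with dispersion -1.22 to 0.13) and 0.53 for Rpl3 (0.50 to 0.56, with dispersion -0.15 to 1.20). On the FPKM scale, Rpl3l made up 38.1, 41.9, 22.6, 31.6, 42.1 and 35.1% of the pair. Rpl3l is made in muscle cells, and the median log2 ratio to Control of the 9 cardiomyocyte markers over the 5 treated libraries was -0.12, -0.60, -0.18, 0.22 and 0.00, beside 0.19, -0.55, -0.09, 0.31 and -0.08 for Rpl3l. Both were lowest at the higher Rh2 dose and highest at the higher Rh2 dose with Dox, and the part of muscle cell content was not tested.

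**Figure D3:**
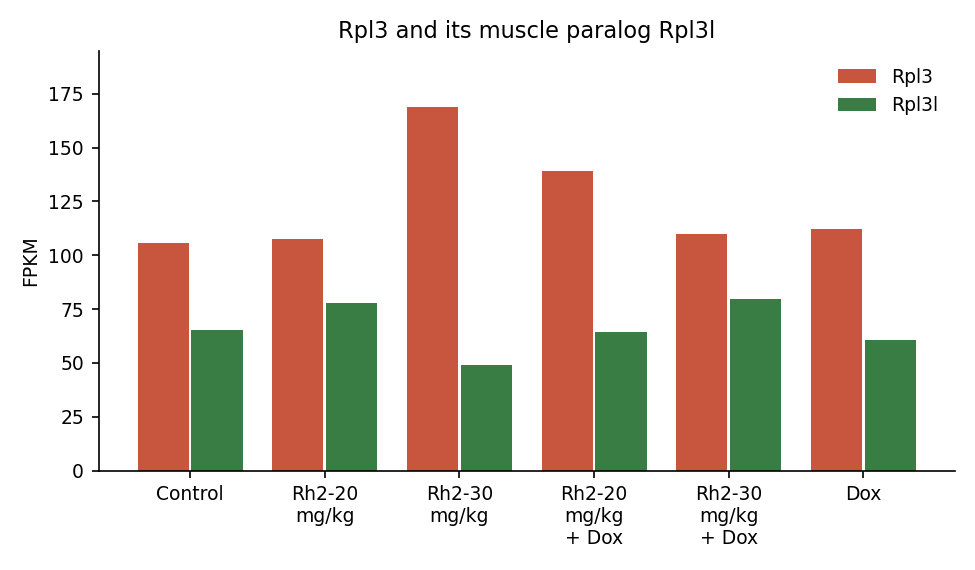
FPKM of Rpl3 and of its striated muscle paralog Rpl3l in the 6 libraries, 1 library a condition and so without error bars. Rpl3 is tallest and Rpl3l shortest in Rh2-30 mg/kg, where Rpl3l makes up 22.6% of the pair against 38.1% in Control.

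Over the 6 libraries, the 5 tested genes with a log2 level most like that of Rpl3l were Kctd1 (Pearson's r 0.998), Cdadc1 (0.989), Gm428 (0.989), Gsto1 (0.986) and Brd7 (0.986). They are the top 5 of 18328 genes over 6 points and carry no p-value. Gsto1, a glutathione transferase, had 3051, 3642, 2239, 3238, 4322 and 3014 counts.

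The other paralogs were as follows. Rpl7l1, a relative of Rpl7 with a role in ribosome assembly, stayed between 18.1 CPM (the lower Rh2 dose) and 21.9 (the lower Rh2 dose with Dox), while Rpl7 ran from 369.6 (Control) to 480.3 (the higher Rh2 dose). Rps27l, which p53 can induce, was 17.7, 19.1, 23.1, 19.1, 17.7 and 16.6 CPM, highest at the higher Rh2 dose and lowest in Dox. Rpl22l1 was 9.53, 9.11, 11.9, 12.8, 11.4 and 11.1, highest at the lower Rh2 dose with Dox, and its parent Rpl22 was 33.2, 32.1, 40.8, 36.0, 31.4 and 28.7, with Dox the lowest. Of the remaining parents of listed paralogs, Rps4x had log2 ratios to Control of 0.03, 0.34, 0.30, 0.19 and 0.14, and Rpl10 of 0.03, 0.33, 0.28, 0.05 and 0.18. Rpl39, the smallest of the 60S proteins at the exit tunnel, was 54.7, 47.3, 76.7, 67.2, 52.5 and 64.1 CPM, again highest at the higher Rh2 dose. None of these genes had a ratio to Control beyond the interval with dispersion.

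Among genes of pseudogene biotype, Rps4l and Rps3a3 were highest in libraries with Dox. Rps4l, a close copy of Rps4x (chr6:148354656-148355596), had 471, 533, 825, 722, 1315 and 904 counts. The Dox and no-Dox libraries overlapped, as the higher Rh2 dose exceeded the lower Rh2 dose with Dox. Rps3a3 had 1622, 1910 and 1750 counts without Dox and 2298, 2702 and 2398 with it. It was the only member whose 3 Dox libraries were all above the 3 without (7.85% of all tested genes). Reads of near-identical copies can be assigned to either, so values of both, and of any member with close pseudogenes, are uncertain. The 224 rows with -ps symbols outside the rule held 7.69% to 8.19% of the members' own counts in each library.

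Setting the 3 libraries given Dox against the other 3 asked what Dox does across Rh2 doses. By edgeR's quasi-likelihood test, 0 of the 87 genes passed an adjusted p of 0.05 (0.0273% of all tested genes did), and 2 had an unadjusted p under 0.05 (10.1%), 2 higher (4.2%) and 0 lower (5.91%). DESeq2's Wald test called 1 member, Rps3a3, where it called 2.32% of all tested genes. Rps3a3 had a log2 fold change of 0.52 ± 0.11 (SE) with an adjusted p of 0.244 in edgeR and 0.00545 in DESeq2, and Rps4l had 0.74 ± 0.27 (adjusted p = 0.435 in edgeR). The median over the 87 was -0.01, as over all tested genes, and 42 of the 87 were above 0 (47.2%). The next highest were Rps27 (0.28), Rpl22l1 (0.21) and Rps14 (0.20), and the lowest were Rpl6l (-0.27), Rpl32 (-0.23), Rpl26 (-0.17), Rpl14 (-0.17) and Rps27l (-0.16), with adjusted p-values from 0.517 to 0.727 in edgeR. Without the library of the higher Rh2 dose alone the median was 0.11 and 13 members had an unadjusted p under 0.05 (9.08% of all tested genes), all higher with Dox. Beside this, the 9 cardiomyocyte markers were all above 0 in the Dox comparison (median 0.19), as were 5 of 6 erythroid markers (median 0.89). The 8 macrophage markers (median -0.51) and 4 B cell markers (median -1.30) were all below 0, and 2 of 8 fibroblast markers were above 0 (median -0.44). Also all below 0 were 4 atrial (median -1.32), 3 brown fat (-8.00) and 4 tested white fat markers (-1.88). The 4 tested neutrophil markers (median 0.53) were all above 0, as were 3 of 6 endothelial markers. Their part in the result was not tested. As each condition has 1 pooled library, these p-values measure the spread between 6 libraries that also differ in Rh2 dose.

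With Dox as a term, setting the 4 libraries given Rh2 against the 2 not given it put 86 of the 87 genes above 0, against 51.8% of all tested genes. The median log2 fold change was 0.16, against 0.01 over all tested genes. By edgeR's quasi-likelihood test 0 genes of any kind passed the adjusted threshold (0% of all tested genes). At an unadjusted p under 0.05 there were 6 members (8.74% of all tested genes), 6 higher with Rh2 (4.09%) and 0 lower (4.65%). DESeq2's Wald test called 0 members (1.32% of all tested genes) and gave 16 with an unadjusted p under 0.05 (10.3%). In the same comparison the 8 macrophage markers were all above 0 (median 0.32), as were 4 atrial (1.06), 4 tested neutrophil (0.83) and 3 brown fat markers (9.68). The 6 erythroid markers were all below 0 (median -0.99). Above 0 were 2 of the 9 cardiomyocyte, 7 of 8 fibroblast, 2 of 6 endothelial, 3 of 4 B cell and 2 of 4 tested white fat markers. The part of these markers in the result was not tested.

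The 6 members at an unadjusted p under 0.05 in edgeR included Rpl36, Rpl8, Rps15, Rpl5 and Rpl14. These had edgeR log2 fold changes from 0.21 to 0.24 and adjusted p-values from 0.568 to 0.569. Rpl36, a 60S protein, was 103 and 99.1 CPM without Rh2 and 113, 125, 115 and 117 with it. Rps15 was 86.02 and 90.4 without Rh2 and 95.4, 110.3, 109.6 and 101 with it. In both of these genes, the libraries without Rh2 lay below the 4 with it. The highest log2 fold changes over the 87 were Rpl36a (0.29 ± 0.13), Rpl30 (0.27 ± 0.11), Rps15 (0.24 ± 0.09), Rpl14 (0.23 ± 0.09) and Rpl5 (0.23 ± 0.09). The lowest were Rpl7l1 (-0.05 ± 0.10), Rps3a3 (0.00 ± 0.12), Rpl3l (0.03 ± 0.23), Rpl32l (0.03 ± 0.21) and Rpl41 (0.03 ± 0.16). Without the library of the higher Rh2 dose alone the median was 0.10 and 1 member had an unadjusted p under 0.05 (7.91% of all tested genes).

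The effect of Dox was then compared between Rh2 doses, which is the study's own question put to these genes. Adding Dox went with a median log2 ratio of the 87 genes of 0.04 without Rh2, 0.16 at the lower Rh2 dose and -0.20 at the higher Rh2 dose. The last value was -0.38 with total counts (all tested genes -0.21) and -0.36 with FPKM + 1, with 3 of the 87 higher in each. By TMM, higher with Dox were 51 of the 87 without Rh2 (49.1% of all tested genes), 80 at the lower Rh2 dose (49.9%) and 10 at the higher Rh2 dose (46.9%). The ratio was above 0 at the lower Rh2 dose and below 0 at the higher Rh2 dose in 72 of the 87 (26.6%), and above 0 also without Rh2 in 43 of these (16.6%). The opposite order, below 0 at the first 2 doses and above 0 at the last, was held by Rpl3l and Rplp2 (15.6%). Among the core 60S genes 44 of 46 were lower with Dox at the higher Rh2 dose, and of the core 40S genes 27 of 31.

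Exceptions at the higher Rh2 dose were Rpl3l, with a ratio of 0.85 (interval with dispersion 0.18 to 1.53), Rps4l with 0.80 and Rps3a3 with 0.75. They were the 3 members whose interval with dispersion excluded 0. That interval was not taken for genes outside the 87, so the share of all tested genes that it would call is not known. At the other doses the Rpl3l ratio was -0.08 without Rh2 and -0.28 at the lower Rh2 dose. In this pair of libraries at the higher dose, the cardiomyocyte markers summed to 21096 CPM without Dox and 29997 with it, and the fibroblast markers to 2623 and 1018. Their part in the ratio was not tested. The interaction of Dox with Rh2 at any dose gave 0 members past the adjusted threshold in edgeR's quasi-likelihood test (0% of all tested genes), 0 at an unadjusted p under 0.05 (2.71%, of which 0.895% higher and 1.82% lower) and 0 in DESeq2 (0.207%), with a median of -0.05 and 24 of the 87 above 0 (48.9%). With total counts in place of TMM the median was -0.16 with 6 above 0, beside -0.11 over all tested genes, and with log2(FPKM + 1) it was -0.15 with 8 above 0. Without the library of the higher Rh2 dose alone, that median was 0.06. The highest interaction values were Rpl3l (0.33 ± 0.49), Rpl7l1 (0.23 ± 0.20), Rps24 (0.21 ± 0.23), Rpl14 (0.14 ± 0.19) and Rps9 (0.14 ± 0.20). The lowest included Rps27 (-0.29 ± 0.35), Rpl18 (-0.28 ± 0.21), Rpl39 (-0.28 ± 0.46) and Rps4l (-0.27 ± 0.65).

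**Figure D4:**
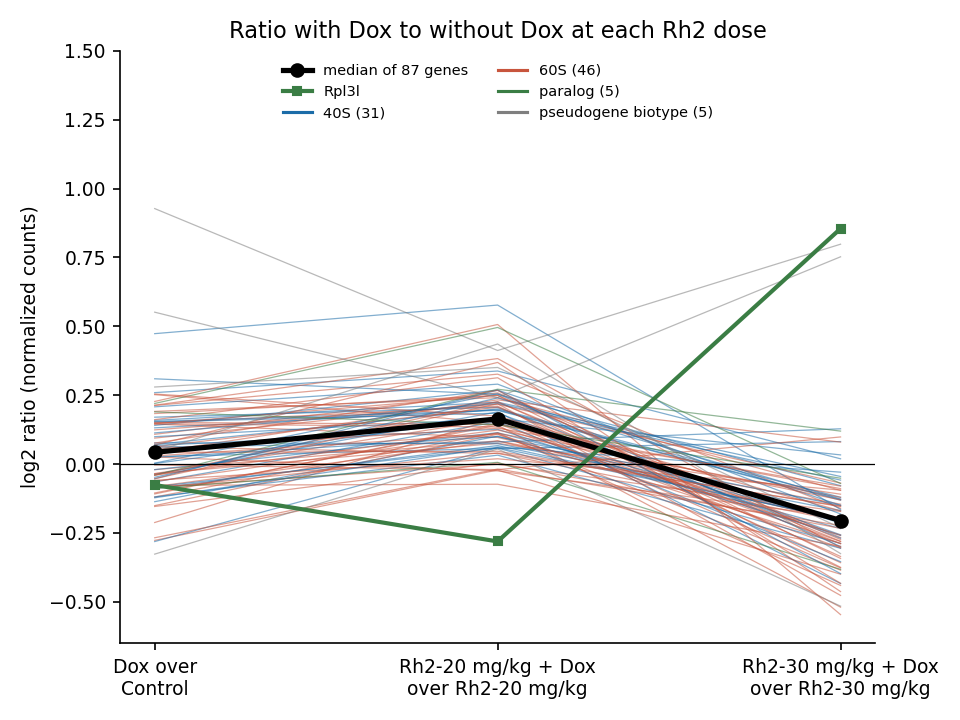
Log2 ratio of the library with Dox to the library without it at each Rh2 dose (0, 20 and 30 mg/kg) for each of the 87 genes (thin lines by subunit or kind), with their median (black, 0.04, 0.16 and -0.20) and Rpl3l (thick green, -0.08, -0.28 and 0.85). Each point compares 1 library with 1 other, so no error is drawn.

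Set against the Dox library in place of Control, the core genes were higher when Rh2 was added at 20 mg/kg. The median log2 ratio of the 87 was 0.16 at the lower Rh2 dose with Dox, with 83 higher (50.7% of all tested genes) and all 77 core genes among them. At the higher Rh2 dose with Dox it was 0.07, with 64 higher (46.8%), and 0.035 with 54 higher when taken on FPKM + 1. The largest value in either was 0.49, for Rps4l at the higher Rh2 dose with Dox. Erythroid markers summed to 10509 CPM in Dox, 5903 at the lower Rh2 dose with Dox and 1658 at the higher one, and macrophage markers to 340, 462 and 263. Their part in these ratios was not tested.

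The genes that work with ribosomal proteins were read from lists drawn up with earlier results of these data known. A list of translation factors and other genes with 5′ TOP mRNAs, such as Npm1 and Tpt1, had the highest median: of 19, 16 were above 0 in the Rh2 comparison with a median of 0.19, 7 had an unadjusted p under 0.05, all higher (4.09% of all tested genes), and 0 passed the adjusted threshold. These 7 were Eif2s3x (0.32 ± 0.08), Eif3f (0.30 ± 0.09), Eef1g, Eef1d, Eef1b2, Eif4b and Eif3h, which serve initiation or elongation. Of the 4 tested ribosomal protein genes outside the symbol rule, Fau, Rack1 and Rpl36al among them, all were above 0 with a median of 0.15, and Rpl36al had an unadjusted p under 0.05.

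The machinery that makes ribosomes was covered by 3 further lists and by the chaperones of ribosomal proteins. Of 45 ribosome biogenesis genes, 29 were above 0 in the Rh2 comparison (51.8% of all tested genes), with a median of 0.07. Among them, 3 had an unadjusted p under 0.05 in edgeR (Nop10, Fbl and Ddx21, all higher). Of all tested genes, 8.74% were at that p with Rh2, 4.09% higher and 4.65% lower. The median was -0.07 over 14 genes of RNA polymerase I, which transcribes ribosomal RNA, with 1 lower at that p (Taf1b), -0.04 over 11 snoRNA host genes with 1 lower (Snhg5), and 0.15 over 6 ribosomal protein chaperones with 0. In the library of the higher Rh2 dose itself, the median log2 ratio to Control was 0.33 for the ribosomal proteins, 0.24 for the translation factors and other TOP genes, 0.02 for biogenesis genes and -0.05 for RNA polymerase I genes. The 16 genes of mTORC1, its regulators and its effectors had a median of -0.02 with Rh2. In edgeR 3 had an unadjusted p under 0.05, 2 higher and 1 lower (8.74% of all tested genes). Ddit4, an mTORC1 inhibitor, was at 1.11 ± 0.11 (adjusted p = 0.381 in edgeR) and Rheb, its activator, at 0.27 ± 0.10 (adjusted p = 0.568). Rps6kb2, an S6 kinase, was at -0.34 ± 0.11 (adjusted p = 0.567 in edgeR). In the Dox comparison no gene of these lists passed the adjusted threshold in edgeR. At an unadjusted p under 0.05 were Bop1 and Nob1, higher, and Nop58, lower, of the 45 biogenesis genes. Of the 16 mTORC1 genes, Rps6kb2, Tsc1 and Sesn1 were at that p, all higher. Among all tested genes, 10.1% were at that p with Dox, 4.2% higher and 5.91% lower.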

How the data were processed

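RNA was sequenced from hearts in 6 libraries, 1 for each condition. The authors deposited raw read counts, whole numbers for each gene, together with FPKM and TPM for the same genes. Per the methods and the submitters' processing notes, libraries were made with SureSelect XT RNA Direct, reads were trimmed with Trimmomatic, aligned to mm10 with HISAT2 2.1.0 and quantified with StringTie 2.1.3b on the UCSC annotation. Capture and the handling of reads shared by near-identical copies can shift the level of single ribosomal protein genes.

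Counts were tested in R 4.3.3 with edgeR 4.0.16 (TMM, quasi-likelihood, two-sided, Benjamini-Hochberg over 18328 genes with a mean count of at least 10). Alternatives used DESeq2 1.42.0 and limma 3.58.1. Single libraries were compared as log2 ratios with a prior count of 0.5, with exact conditional binomial intervals, and wider ones with a common dispersion (0.0285, from the 6 libraries as 1 group). The fits were run on simulated data with larger changes and a lower dispersion than here. Shifts of the size seen in the members were therefore not covered. The members and gene lists were chosen with earlier results of these data known. Genes named are paralogs and their parents, the 3 highest and 3 lowest by FPKM, the 5 highest and 5 lowest of each comparison, those past 2-fold, the stalk and known landmarks, and those most like Rpl3l. Rpl37, the genes given at an unadjusted p under 0.05 with Rh2, and the list genes at that p were named after their values were seen. A few genes that this rule would name are not reported here.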

Additional observations from a re-analysis of the deposited data

Results flagged for a closer look

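In 72 of the 87 genes the ratio with Dox to without Dox was above 0 at Rh2-20 mg/kg and below 0 at Rh2-30 mg/kg, against 26.6% of all tested genes, and the median ratio at Rh2-30 mg/kg was -0.20 where it was 0.04 and 0.16 at the other doses. This difference between doses rests on 1 library a condition and was not tested, and the pooled interaction test called 0 members. Rpl3l went the other way, with 0.85 at Rh2-30 mg/kg against -0.08 and -0.28, and that difference was likewise not tested. The -ps rows lie outside the 87, and those past the count minimum were among all tested genes. Together the -ps rows summed to 0.22 (log2) above Control in Rh2-30 mg/kg, the highest of the 5 treated libraries.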

How the results depend on the processing

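The labels give no replicate numbers to pair by, so the Dox and no-Dox libraries were paired by Rh2 dose. This block left the median of the 87 genes in the Dox comparison at 0.00061 and called 0 members. The number of members called stayed at 0 in the 3 comparisons under the alternatives run, except 1 with Dox under DESeq2. Over all tested genes, the Dox comparison called 5 in edgeR, 425 in DESeq2, 0 with log2(FPKM + 1) or the dose block and 0 to 14 with a library left out. The Rh2 comparison called 0, 242 in DESeq2 and 23 when the lower dose, with and without Dox, was set against no Rh2, an alternative chosen after seeing the data. The interaction called 0, 38 in DESeq2 and 0 to 1 with a library left out, and it could not be fitted without Control or without Dox. With a library left out, the median of the 87 ran from -0.075 to 0.11 with Dox, from 0.10 to 0.21 with Rh2 and from -0.19 to 0.06 in the interaction, the 0.11, the 0.10 and the 0.06 being without the Rh2-30 mg/kg library. At an unadjusted p under 0.05 with Rh2 in edgeR there were 6 members, and 1602 of the 18328 tested genes. Without the lower dose with Dox there were 0 members (1152 of all tested genes), and without the lower dose alone 10 (1299). Leaving out the higher dose alone gave 1 (1450), and leaving it out with Dox gave 1 (1433). There were 14 with total counts (1962), 17 with dose as a number (2105) and 12 for the lower dose against no Rh2 (2488). Without Control or without Dox, 1 library without Rh2 remained, and the median of the 87 was 0.13 and 0.19.

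Total counts in place of TMM moved the median of all genes in Rh2-30 mg/kg from 0.03 to 0.20. The members' median against Control was then 0.12 (lower Rh2 dose), 0.50 (higher dose) and 0.30 (lower dose with Dox). It was 0.13, 0.47 and 0.28 with FPKM + 1, and 0.13, 0.48 and 0.28 with FPKM + 0.1. Past a 25% change in either direction were 48 members at the higher dose, 14 and 5 at the lower and higher dose with Dox, and 4 with Dox alone, against 0, 0, 1 and 0 past 2-fold. Of the 18328 tested genes, 4929, 3500, 3492 and 3739 were higher past that change in the same order, and 2972, 2987, 4345 and 3235 were lower. In the fixed order of the 6 libraries, the share of counts without titin (Ttn) was 1.58, 1.71, 2.18, 1.92, 1.70 and 1.63%, and of FPKM or TPM 5.0, 5.46, 6.90, 6.05, 5.42 and 5.12%.

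Several genes changed sign. In the Rh2 comparison, Rpl7l1 was 0.019 with total counts, 0.0053 with FPKM + 1 and 0.0057 with FPKM + 0.1, and Rps3a3 was -0.0022 with DESeq2's size factors, -0.0023 in DESeq2 and -0.029 for the lower dose (with and without Dox) against no Rh2. Rpl3l was -0.016 with dose as a number and -0.084 for the higher dose (with and without Dox) against no Rh2, and Rpl32l was -0.098 for the lower dose so compared. With a library left out, the ranges with Rh2 were -0.17 to 0.064 for Rpl7l1, -0.066 to 0.068 for Rps3a3, -0.13 to 0.20 for Rpl3l, -0.049 to 0.11 for Rpl32l and -0.078 to 0.15 for Rpl41, and in the interaction -0.58 to 0.11 for Rpl39 and -0.82 to 0.12 for Rps4l, both among the lowest of the 87 with all libraries. The cause was not tested. With 1 library a condition, the spread between libraries and not the depth limits what can be seen.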
